A study of Mus musculus with 6 samples.

Results

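The Notch pathway of the enamel organ was described here through 10 genes, the receptors Notch1, Notch2 and Notch3, the ligands Jag1, Jag2 and Dll1, the modifier Lfng and the targets Hes1, Hey1 and Hey2, which were taken by symbol from an RNA-seq table of 18152 genes and were all found. The libraries came from the inner enamel epithelium (IEE), the single-layered epithelium of the tooth germ that faces the dental papilla and becomes the ameloblast layer, laser-captured from mandibular first molars of mouse embryos at E18.5. Control embryos (n = 3 libraries) carried floxed Kdf1 alleles without Cre (Kdf1 fl/fl, called WT in the labels). The cKO embryos (n = 3 libraries) carried the same floxed alleles together with K14-Cre (K14-Cre;Kdf1 fl/fl). Both groups were on a C57BL/6J background. Kdf1 encodes keratinocyte differentiation factor 1, an epithelial regulator of proliferation and differentiation, and the question asked here was how the Notch genes differed between the groups. The keratin 14 promoter drives Cre in keratin 14-expressing epithelium, so cells of the neighbouring mesenchyme, vessels and immune system keep Kdf1. Captured tissue can include bordering cells, and nothing in the labels says whether a library is 1 embryo or a pool.

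Notch receptors are single-pass membrane proteins that are cut when a Jagged or Delta-like ligand on a neighbouring cell binds and pulls on them. The freed intracellular domain enters the nucleus, joins RBPJ and Mastermind-like proteins and switches on targets such as the Hes and Hey repressors, while Fringe enzymes add sugars to the receptors and alter which ligands they answer to. In the enamel organ the pathway is known for contacts between layers, with Notch1 a classical marker of the stratum intermedium and Jag2 a ligand of the inner enamel epithelium, and Notch3 is best known from mural cells around vessels.

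Depth was even, with 14713918 to 16675133 estimated counts per library, so that the limit set by a count of 0 (3 counts, counting error only) was 0.182 to 0.198 CPM (counts scaled to library size). Kdf1 stood at 44.3 to 52.7 CPM in controls and was at 0 in 2 cKO libraries, with 1 read (0.0629 CPM) in the other, at least 252-fold lower. The 8 dental epithelium markers summed to 8481 to 11759 TPM (also scaled to transcript length) in controls and to 4962 to 8551 in cKO libraries, and the 6 ameloblast genes to 4231 to 34656 TPM against 118 to 981. Of the 8 epithelial markers 7 were lower and 1 higher on average. Only Cdh1 passed the edgeR test without a block (log2 fold change −1.50, adjusted p = 0.0498, at most 0.210 in other settings). All 4 ameloblast genes tested were lower on average, and 0 passed that test. Of 8 endothelial, 7 mural and 9 immune markers, all 24 were higher on average in cKO libraries. None of these passed the edgeR test without a block after adjustment. With the replicate number as a block, a pairing that no label states, 1 endothelial, 2 mural and 1 immune marker passed, beside 9.87% of all genes. In DESeq2, 2 endothelial, 2 mural and 5 immune markers passed, beside 12.6% of all genes. Of the dental epithelium markers 4 passed as lower both with the block and in DESeq2. Of the ameloblast genes 4 passed as lower with the block and 3 in DESeq2. Of 10 markers of the bordering dental papilla and its odontoblasts, 7 were higher and 3 lower on average (median log2 fold change 1.61). After adjustment, 6 of the 10 passed as higher and 1 as lower with the block, and 5 and 1 in DESeq2. Among the higher ones Twist1, a mesenchymal transcription factor, rose, with a log2 fold change of 2.23 (edgeR adjusted p = 0.0498, and 1.93 with 0.104 without cKO replicate 1). The sum of the 10 markers overlapped, at 1775 to 8394 TPM in controls and 4380 to 6025 TPM in cKO libraries. Markers of keratinised epithelium summed to 45.7 to 146 TPM in controls and 15.9 to 16.8 TPM in cKO libraries. Of the 5 tested, 4 were lower and 1 higher on average (median log2 fold change −0.75). Among them Krt6a and Grhl3 fell, with log2 fold changes of −3.87 and −3.55 (edgeR adjusted p = 0.0498 and 0.0247). Without cKO replicate 1 their edgeR adjusted p-values were 0.111 and 0.0881. The part of these populations in the Notch values was not tested. The cKO replicate 1 library stood apart, with summed levels of 594 TPM for endothelial, 808 TPM for mural and 536 TPM for immune markers, against at most 320, 273 and 252 TPM in any other library, so Notch results that rest on it are given with and without it. In tissue RNA, fewer cells of a type and less RNA per cell cannot be told apart.

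Among the receptors, Notch1 and Notch2 were lower in cKO IEE in every library and Notch3 was not separated. Notch1 (identifier 18128) measured 298, 215 and 179 CPM in control replicates 1 to 3 and 153, 93.9 and 76.5 CPM in cKO replicates 1 to 3. All cKO libraries lay below all controls, and in each group replicate 1 was the highest and replicate 3 the lowest. The mean level was 230 ± 60.8 CPM (SD, n = 3) in controls and 108 ± 40.3 CPM (SD, n = 3) in cKO libraries, and the fitted cKO level was 46.8% of control (95% interval 28.9% to 75.9%). The log2 fold change of −1.09 (SE 0.30) had an adjusted p of 0.0942 in edgeR's quasi-likelihood test without pairing, short of the limit of 0.05. With the replicate number as a block the log2 fold change was −1.13 (SE 0.12) with an edgeR adjusted p of 0.00695, and the cKO-to-control ratios of CPM within numbers were 0.516, 0.437 and 0.427. Without cKO replicate 1, the unblocked log2 fold change was −1.42 with an edgeR adjusted p of 0.104.

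Notch2 (identifier 18129) was the most abundant receptor. It measured 758, 569 and 605 CPM in controls and 391, 312 and 375 CPM in cKO libraries. The groups were again apart, with the highest cKO library well under the lowest control. The fitted cKO level was 55.8% of control (95% interval 42.8% to 72.7%), a log2 fold change of −0.84 (SE 0.16) with an edgeR adjusted p of 0.0637. With the block the adjusted p from edgeR was 0.0188 for a log2 fold change of −0.84 (SE 0.14), and DESeq2, run without the block, gave an adjusted p of 0.000117 for Notch2 and 0.00856 for Notch1. Without cKO replicate 1, the unblocked log2 fold change of Notch2 was −0.89 with an edgeR adjusted p of 0.112. Thus the call of both receptors rested on the choice of test. The study's criterion also asks for a change of 1 or more on the log2 scale, which Notch1 reached and Notch2 did not.

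Notch3 (identifier 18131) measured 142, 122 and 94.4 CPM in controls and 170, 110 and 67.3 CPM in cKO libraries. The cKO libraries spanned a wider range than the controls and lay on both sides of them. It had a log2 fold change of −0.05 (95% interval −0.81 to 0.72) with an edgeR adjusted p of 0.947, and its sign turned with library size alone as scaling (0.0029). The mural marker sum ranged from 175 to 209 TPM in controls and from 193 to 808 TPM in cKO libraries, and the ratio of Notch3 to the mural receptor gene Pdgfrb was 1.43 to 2.40 in controls and 0.408 to 0.636 in cKO libraries (TPM). The ratio was lower in all cKO libraries, and Pdgfrb itself had a log2 fold change of 2.00 (edgeR adjusted p = 0.0841, and 0.0285 with the block), which was 1.44 without cKO replicate 1. The 7 mural markers had a lower median log2 fold change of 0.99, with 0.83 for Rgs5. No ratio of Notch3 to another mural marker was taken. The part of mural cells in the Notch3 values was not tested.

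**Figure D1:**
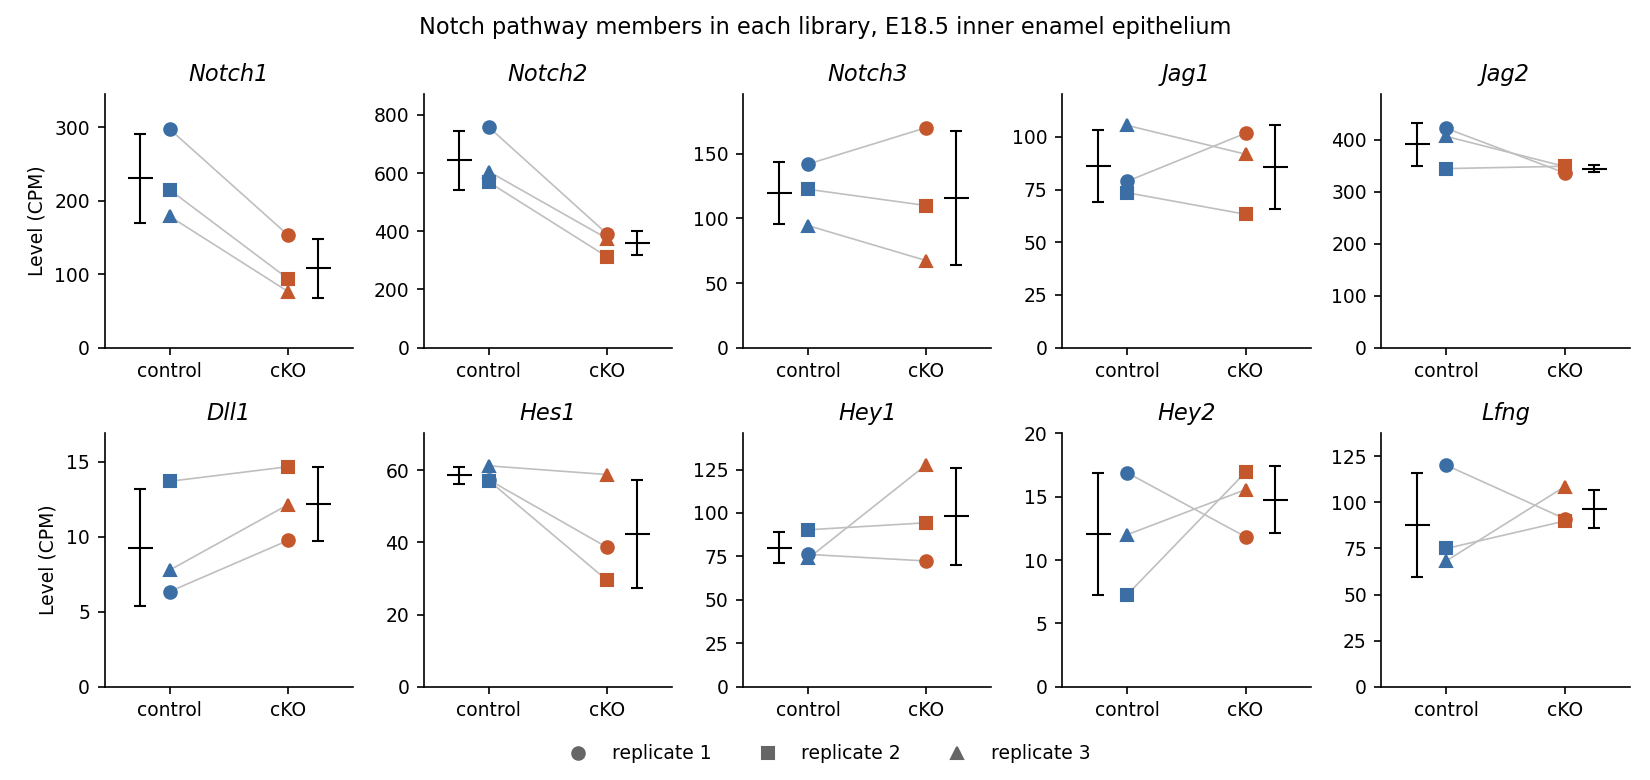
Level in CPM (linear axes from 0) of the 10 Notch genes in each control (blue) and cKO (orange) library, with marker shapes for the replicate numbers, grey lines joining libraries of the same number and black bars for the mean and SD (n = 3). Only the Notch1 and Notch2 panels show groups that do not overlap.

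The promoters of Notch1 and Notch2 are shown because these were the members whose groups were apart. RefSeq (GRCm38.p6) promoter windows of the 250 bases before the start were found for 8 of 10 members, and Hes1 and Hey1 had no entry. The windows lie at chr2:26503823-26504072 on the minus strand for Notch1 and at chr3:98013288-98013537 on the plus strand for Notch2, and are written 5′ to 3′ along the gene with GC boxes (GGGCGG or its reverse complement CCGCCC) in capitals.
Notch1: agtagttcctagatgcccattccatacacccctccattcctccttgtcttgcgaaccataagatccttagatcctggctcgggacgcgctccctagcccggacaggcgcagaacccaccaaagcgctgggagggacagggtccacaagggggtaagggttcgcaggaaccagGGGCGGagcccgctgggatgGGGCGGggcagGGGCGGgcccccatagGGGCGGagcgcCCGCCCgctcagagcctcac
Notch2: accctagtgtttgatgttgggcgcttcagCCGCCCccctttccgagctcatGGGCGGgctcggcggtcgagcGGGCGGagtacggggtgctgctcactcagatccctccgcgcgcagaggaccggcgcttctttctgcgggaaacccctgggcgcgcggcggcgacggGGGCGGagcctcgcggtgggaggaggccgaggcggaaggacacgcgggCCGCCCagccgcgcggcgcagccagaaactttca
Each window held 5 GC boxes and was rich in G and C, at 66% and 72%. A GC box was present in 6 of the 8 members with an entry and in 32.7% of 32851 promoter windows of the same length, with 2 or more in 16.7%. Neither window held the core letters of an RBPJ site. In the GENCODE M21 annotation, exons covered 2 bases of the Notch1 window and 11 bases of the Notch2 window, the rest being upstream sequence.

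The makeup of the receptor transcripts shifted with Notch1. As a share of the summed TPM of the 4 Notch receptors, Notch1 was 25.4%, 23.9% and 20.8% in controls and 19.5%, 17.6% and 14.9% in cKO libraries, with no overlap. Notch2 held 57.0% to 63.5% of the sum in controls and 44.8% to 65.9% in cKO libraries, which overlapped. Notch4, a receptor best known from endothelium, rounded off the sum at 2.14% to 2.95% in controls and 3.62% to 9.94% in cKO libraries, and the highest share was that of cKO replicate 1. Summed Notch1 and Notch2 levels were 183, 143 and 125 TPM in controls and 105, 71.6 and 75.6 TPM in cKO libraries. No test was made of these shares and sums.

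**Figure D2:**
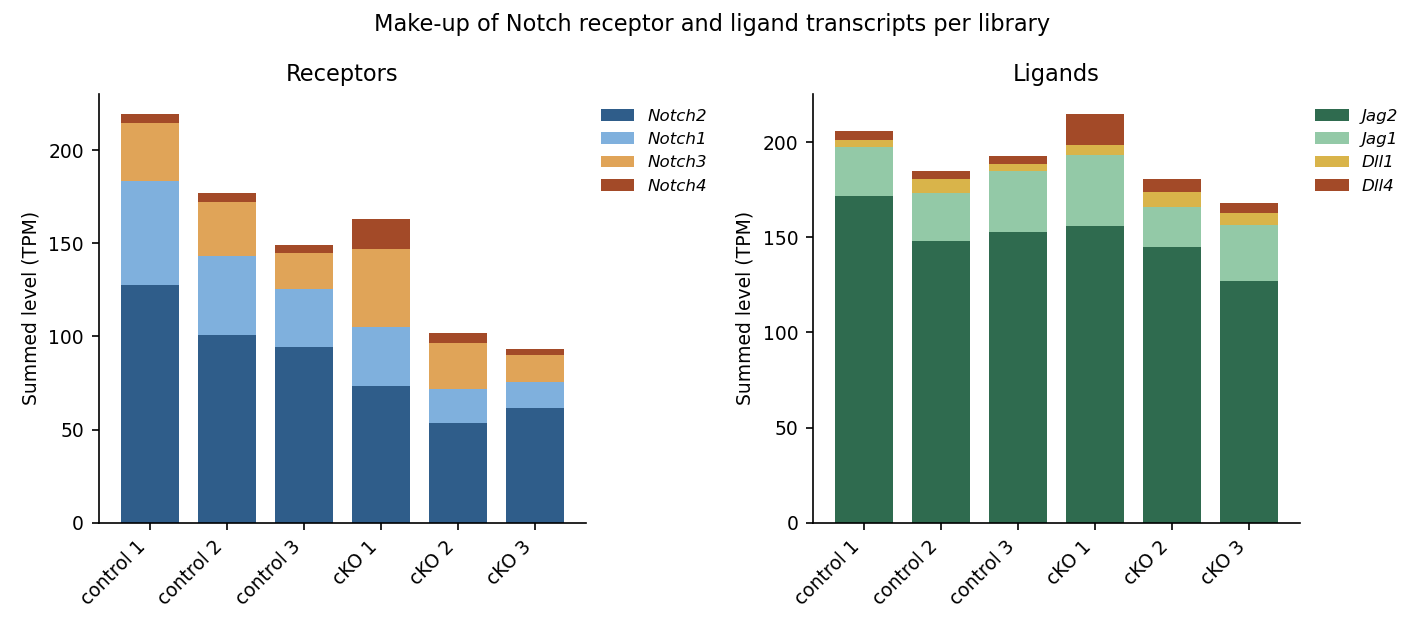
Stacked bars of the level (TPM, axis from 0) of 4 Notch receptors on the left and 4 ligands on the right in each library. The Notch1 and Notch2 parts are shorter in the cKO libraries, the Jag2 part is of like height in all 6, and the Notch4 and Dll4 parts are tallest in cKO replicate 1.

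Set against the epithelial markers, the receptor levels gave ratios whose direction differed from marker to marker. The ratio of Notch1 to each of the 8 dental epithelium markers (TPM) was lower in every cKO library than in every control for 1 marker, Epcam, and overlapped between groups for the other 7. For Epcam, the epithelial adhesion molecule, the Notch1 ratio was 0.117 to 0.168 in controls and 0.0417 to 0.105 in cKO libraries. For Krt14 it was 0.0105 to 0.0325 in controls and 0.0116 to 0.0466 in cKO libraries. Krt14 had a log2 fold change of −1.50 (edgeR adjusted p = 0.0842, and 0.0068 with the block), beside −1.09 for Notch1. Cdh1 also had −1.50, and Krt5 had −0.83. The median log2 fold change of the 8 markers was −0.64, closer to 0 than those of Notch1 and Notch2 (−0.84). The ratio of Notch2 was lower in every cKO library for Epcam and Shh, higher for Cdh1 and overlapping for Krt14, Krt5, Sp6 and Perp. Within replicate numbers, the ratios of both receptors were higher in cKO than in control for Krt14 and Cdh1 in all 3 pairs, lower in all 3 for Epcam, Shh and Sp6, and mixed for Krt5 and Perp. Stratum intermedium markers summed to 661 to 815 TPM in controls and 427 to 572 TPM in cKO libraries. Most of this sum was Alpl, at 596 to 748 TPM in controls and 356 to 371 TPM in cKO libraries. Of the 5 genes 2 were lower on average and 3 higher. Among them Alpl, the tissue-nonspecific alkaline phosphatase, fell, with a log2 fold change of −0.93 (SE 0.13, edgeR adjusted p = 0.0498, and 0.104 without cKO replicate 1), whereas Thbd, thrombomodulin, had a log2 fold change of 2.98 (edgeR adjusted p = 0.0714, and 0.0241 with the block). Thbd was at 242 CPM in cKO replicate 1 against 47.6 and 58.5 CPM in the other cKO libraries, and its log2 fold change was 1.87 without that library. The part of these cell populations in the receptor values was not tested.

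No ligand among the members passed the test in edgeR, with or without the block, or in DESeq2. Jag2 (identifier 16450), the Jagged ligand of the inner enamel epithelium, measured 422, 345 and 406 CPM in controls and 336, 349 and 349 CPM in cKO libraries. The cKO libraries lay close together, on both sides of the lowest control. Jag2 had a log2 fold change of −0.18 (SE 0.12) with an edgeR adjusted p of 0.401, and the fitted cKO level was 88.2% of control (95% interval 72.1% to 108%). Jag2 made up 79.2% to 83.4% of summed ligand TPM in controls and 72.5% to 80.2% in cKO libraries.

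Jag1 (identifier 16449), the other Jagged ligand, measured 79.0, 73.5 and 105 CPM in controls and 102, 63.3 and 91.8 CPM in cKO libraries. The groups overlapped over most of their range. Its log2 fold change was −0.01 (95% interval −0.51 to 0.50, edgeR adjusted p = 0.99). With all libraries kept, 7 other settings, among them library size alone, put Jag1 just above 0. It was also above 0 without control replicate 3 (0.17) and without cKO replicate 2 (0.20). Dll1 (identifier 13388), a Delta-like ligand, was the lowest of the members, at 6.34, 13.7 and 7.77 CPM in controls and 9.75, 14.7 and 12.1 CPM in cKO libraries. It was higher in cKO than in control libraries of the same number, with ratios of 1.54, 1.07 and 1.56, but the groups overlapped. The log2 fold change of Dll1 was 0.39 (95% interval −0.37 to 1.16) with an edgeR adjusted p of 0.490.

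The ratio of Jag2 to summed Notch1 and Notch2 (TPM) was 0.937, 1.03 and 1.22 in controls and 1.48, 2.02 and 1.68 in cKO libraries, without overlap. This ratio restates the separate gene levels and was given no test of its own.

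Of the Fringe modifiers, Lfng (identifier 16848), the Lunatic fringe glycosyltransferase, measured 120, 75 and 68.3 CPM in controls and 91.1, 89.9 and 109 CPM in cKO libraries. The controls spanned the cKO range, with control replicate 1 the highest of all 6. For Lfng the log2 fold change was 0.14 (95% interval −0.39 to 0.66, edgeR adjusted p = 0.740), and it was −0.012 without control replicate 3. Its relatives differed in direction, with log2 fold changes of 0.73 for Mfng (edgeR adjusted p = 0.194) and −0.25 for Rfng (edgeR adjusted p = 0.314). Mfng levels were 5.34 to 6.76 CPM in controls and 14.4, 8.43 and 7.19 CPM in cKO replicates 1 to 3, and without cKO replicate 1 the log2 fold change was 0.39.

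Among the target members, Hes1 was lower and Hey1 and Hey2 were higher on average, and none passed the test. Hes1 (identifier 15205), a repressor of differentiation genes, measured 57.3, 57.1 and 61.2 CPM in controls and 38.6, 29.4 and 58.8 CPM in cKO libraries. The controls were tightly grouped, and cKO replicates 1 and 2 lay below them while cKO replicate 3 lay among them. Hes1 had a log2 fold change of −0.47 (SE 0.24) with an edgeR adjusted p of 0.270, and it was −0.53 with an adjusted p of 0.119 with the block. Hey1 (identifier 15213) measured 76.2, 90.3 and 73.8 CPM in controls and 72.3, 94.3 and 128 CPM in cKO libraries. Its higher mean in cKO embryos came from cKO replicate 3, the library in which Hes1 was not lower. The log2 fold change of Hey1 was 0.29 (95% interval −0.20 to 0.79, edgeR adjusted p = 0.427), and it was 0.07 at its lowest when single libraries were left out. Hey2 (identifier 15214), the least abundant target of the 3, measured 16.9, 7.27 and 12 CPM in controls and 11.8, 16.9 and 15.6 CPM in cKO libraries, which overlapped. Its log2 fold change was 0.29 (95% interval −0.45 to 1.04, edgeR adjusted p = 0.602). The ratio of Hey1 to Hes1 (TPM) was 0.740 to 0.962 in controls and 1.14 to 1.94 in cKO libraries.

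**Figure D3:**
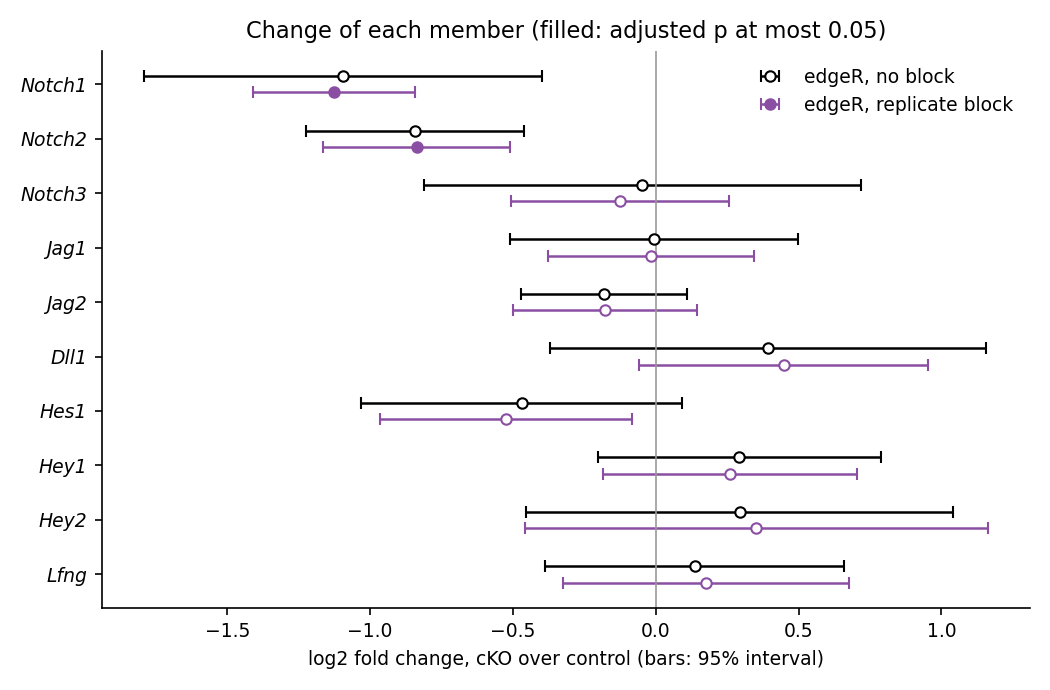
Log2 fold change (cKO over control) of each member with its 95% interval, from edgeR without a block (black) and with the replicate block (purple), filled where the adjusted p is at most 0.05. Only the blocked points of Notch1 (−1.13) and Notch2 (−0.84) are filled, and the unblocked intervals of the other 8 genes include 0.

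Lfng and Hey2 were the members whose promoter window held the core of an RBPJ site (TGGGAA or its reverse complement TTCCCA, both strands searched, in capitals), and are shown for that reason. The Lfng window is chr5:140607091-140607340 on the plus strand and the Hey2 window chr10:30842784-30843033 on the minus strand, both in GRCm38.p6 and from RefSeq.
Lfng: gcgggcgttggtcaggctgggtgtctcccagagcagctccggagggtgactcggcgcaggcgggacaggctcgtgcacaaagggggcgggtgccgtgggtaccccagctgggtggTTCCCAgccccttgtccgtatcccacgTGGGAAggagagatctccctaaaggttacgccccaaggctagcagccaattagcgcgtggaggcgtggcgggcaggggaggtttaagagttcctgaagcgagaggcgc
Hey2: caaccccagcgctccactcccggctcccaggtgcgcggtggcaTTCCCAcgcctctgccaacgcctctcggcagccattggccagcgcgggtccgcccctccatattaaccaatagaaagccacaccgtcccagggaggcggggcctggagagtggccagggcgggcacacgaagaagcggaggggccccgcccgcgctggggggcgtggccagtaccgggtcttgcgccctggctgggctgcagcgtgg
The cores began 135 and 108 bases before the start of Lfng, on opposite strands, and 207 bases before the start of Hey2. The core was found in 2 of the 8 members with an entry, beside 21.6% of all windows, with 2 or more in 2.77%. Exons covered 21 bases of the Lfng window and 18 bases of the Hey2 window. The levels of Lfng and Hey2, given above, overlapped between the groups.

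Counted over the 10 members, 0 met the study's criterion in edgeR without the block, where 0.432% of the 14131 genes tested did, and 0 passed on the adjusted p alone, beside 0.545%. At an unadjusted p of at most 0.05 there were 2, Notch1 and Notch2, a share of 20% beside 24.5% of all genes, 11.6% with cKO lower. The groups did not overlap for the same 2 genes, beside 30.7% of all genes, 16.2% with cKO lower. Both shares were below those of all genes in either direction. They were above those with cKO lower, at 20% beside 11.6% and 16.2%, with only 2 of 10 genes behind each. With the block 1 member, Notch1, met the criterion beside 6.09% of all genes (1.92% lower), and 2 passed on the adjusted p alone beside 9.87% (4.44% lower). DESeq2 gave the same 1 member by the criterion, beside 6.94% (1.88% lower), and the same 2 on the adjusted p alone, beside 12.6% (5.25% lower). On average 6 members were lower and 4 higher in cKO embryos, beside 50.5% of all genes lower, with a median log2 fold change of −0.03 against −0.0043 over all genes tested.

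The order of the members by level, read in TPM, which is per transcript length, was led by Jag2 in both groups. In controls Jag2 stood at 158 ± 12.6 TPM (SD, n = 3), above 94.7% of genes in the table, followed by Notch2 at 108 ± 17.6 TPM. Hes1 (85.1 TPM), Lfng (74.8 TPM) and Hey1 (71.5 TPM) came next and overlapped from neighbour to neighbour. Notch1 (43.0 TPM), Jag1 (27.8 TPM) and Notch3 (26.5 TPM) formed another overlapping run, and Hey2 (9.06 TPM) and Dll1 (4.89 TPM) were lowest. In cKO embryos Jag2 (143 TPM) was still first, but Notch2 (62.8 TPM) stood below Hey1 (89.7 TPM), Lfng (85.2 TPM) and Hes1 (63.6 TPM), 4 genes whose neighbours overlapped. Notch1 (21.3 TPM) stood below Jag1 (29.3 TPM) and Notch3 (27.1 TPM), which it overlapped. Notch1 and Notch2 thus stood lower in the order of the cKO libraries while the ligand at its head was the same.

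The genes whose pattern over the 6 libraries was most like that of each receptor were found by Pearson's r of log2 CPM among 11902 genes whose mean reached 5 CPM in either group. For Notch1 these were AU022252 (0.996), Bcor (0.992) and Fbxl19 (0.991), for Notch2 they were Rae1 (0.995) and Taf6 (0.994), and for Notch3 they were Gm39972 (0.998), Cdc42bpb (0.994) and Cep250 (0.987). An r above 0.9 was reached by 299 genes for Notch1, 573 for Notch2 and 143 for Notch3. With 6 points that share libraries, such values are a description, and no other member was among these leading genes.

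Across the wider pathway, a list of 77 genes in 10 roles, 75 were tested and none passed the edgeR test without the block. At an unadjusted p of at most 0.05 there were 19, 10 higher and 9 lower in cKO embryos, a share of 25.3% beside 24.5% of all genes. With the block 3 of the 75 met the criterion (Notch1, Dlk1 and Dtx4), beside 6.09% of all genes. The same 3 met it in DESeq2, beside 6.94% of all genes. On the adjusted p alone 9 of the 75 passed with the block, beside 9.87% of all genes, adding Notch2, Tle1, Tle4, Nrarp, Ccnd1 and Cdkn1a. In DESeq2 7 passed, beside 12.6% of all genes, adding Notch2, Nrarp, Ccnd1 and Crebbp. The median log2 fold change of the list was 0.03, and the groups did not overlap for 20 genes, a share of 26.7% beside 30.7% of all genes.

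Nrarp, a Notch target whose product dampens the pathway, was lower alongside the receptors. It measured 69.9, 57.2 and 68.9 CPM in controls and 40.2, 32.6 and 45.4 CPM in cKO libraries. All cKO libraries lay below all controls. Its log2 fold change was −0.73 (SE 0.16), with an edgeR adjusted p of 0.0704, of 0.0186 with the block, and of 0.00352 in DESeq2. Ccnd1, which encodes cyclin D1 of the G1 phase, measured 633, 530 and 455 CPM in controls and 326, 390 and 269 CPM in cKO libraries. Again the groups did not overlap. The log2 fold change of Ccnd1 was −0.72 (SE 0.19) with edgeR adjusted p-values of 0.0896 without and 0.0348 with the block.

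Other targets were mixed. Heyl, another Hey-family repressor, measured 43.3, 67.6 and 49.0 CPM in controls and 43.8, 28.6 and 33.4 CPM in cKO libraries, where cKO replicate 1 lay just inside the control range. Its log2 fold change of −0.60 had an edgeR adjusted p of 0.162, and of 0.170 with the block. Cdkn1a, the cell cycle inhibitor p21, varied widely, at 173, 343 and 536 CPM in controls and 98.6, 144 and 304 CPM in cKO libraries. It was lower within every replicate number although the groups overlapped, so its log2 fold change of −0.94 had an edgeR adjusted p of 0.30 without the block and a log2 fold change of −0.96 had 0.0146 with it. Hes6, which counters Hes1, was higher in every cKO library, at 28 to 34.6 CPM against 23.8 to 27.1 CPM, with an edgeR adjusted p of 0.215. Myc, Id3, Hes7 and Gata3 had log2 fold changes of −0.20, 0.17, −0.14 and 0.22 and edgeR adjusted p-values of 0.488 to 0.842. Hes5 was under the filter on low counts.

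**Figure D4:**
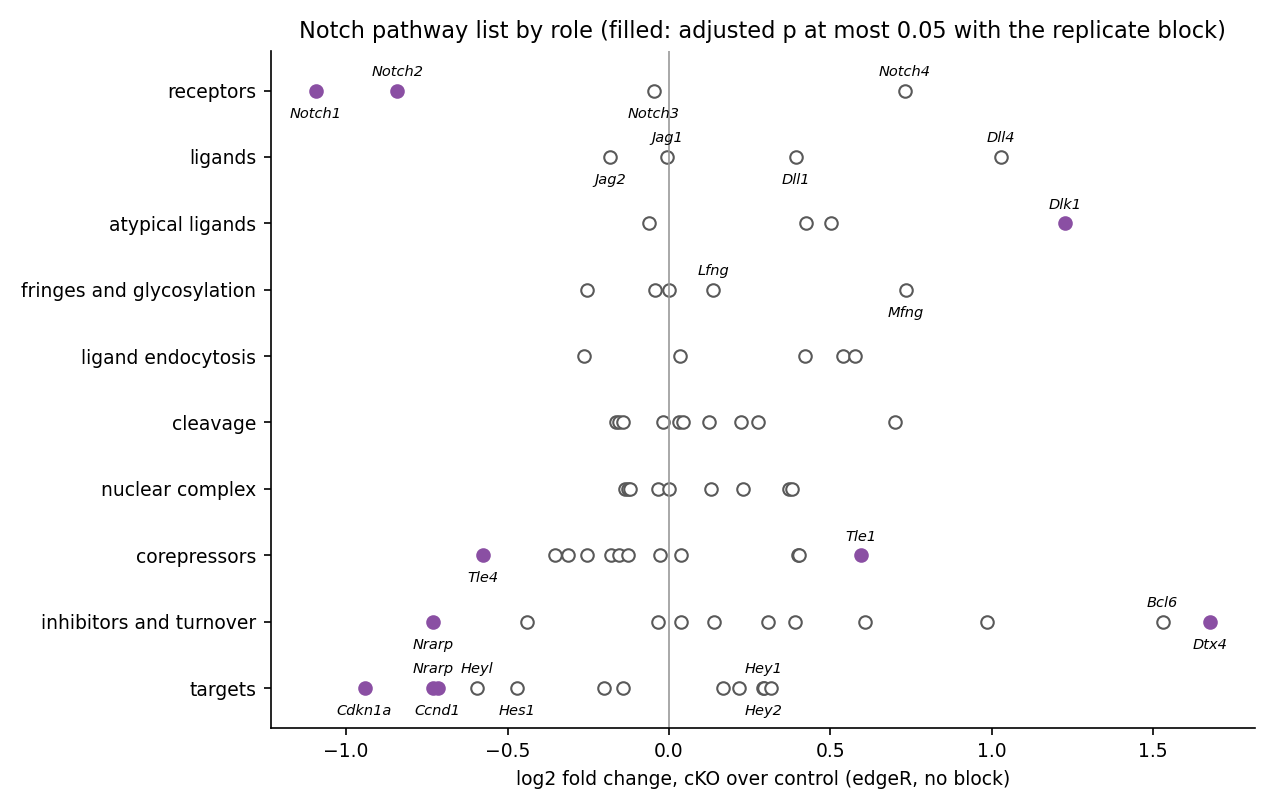
Log2 fold change (cKO over control, edgeR without the block) of the 75 tested pathway genes by role, with Nrarp shown in both of its roles and purple filled points for an adjusted p of at most 0.05 with the replicate block. Notch1, Notch2, Nrarp, Ccnd1, Cdkn1a and Tle4 are filled to the left of 0, and Dlk1, Dtx4 and Tle1 to the right.

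On the higher side, Dlk1, an atypical ligand of the Delta family, measured 21.1, 37.6 and 22.7 CPM in controls and 38.6, 98.0 and 54.3 CPM in cKO libraries. The lowest cKO library stood just above the highest control. Its log2 fold change was 1.23 (SE 0.38) with an edgeR adjusted p of 0.119, and with the block it was 1.17 with an adjusted p of 0.00957. Dtx4, a Deltex ubiquitin ligase that acts on Notch receptors, measured 4.02, 9.21 and 4.93 CPM in controls and 25.9, 20.8 and 11.3 CPM in cKO libraries. The groups did not overlap, and the log2 fold change of Dtx4 was 1.68 (SE 0.41) with an edgeR adjusted p of 0.0840 without and 0.0346 with the block. Without cKO replicate 1, the unblocked log2 fold changes were 1.5 for Dlk1 and 1.42 for Dtx4. The corepressors Tle1 and Tle4 of the Groucho family had opposite log2 fold changes of 0.60 and −0.58, with edgeR adjusted p-values of 0.0326 and 0.0390 with the block.

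Dll4 and Notch4, the ligand and receptor typical of endothelium, were highest in cKO replicate 1. Dll4 measured 9.04, 6.72 and 7.77 CPM in controls and 26.8, 11.6 and 9.62 CPM in cKO libraries, with a log2 fold change of 1.03 (edgeR adjusted p = 0.172) that was 0.46 without cKO replicate 1. Notch4 measured 17.3, 18.2 and 15.8 CPM in controls and 53.6, 18.7 and 12.7 CPM in cKO libraries. Its log2 fold change of 0.73 (edgeR adjusted p = 0.403) turned to −0.11 without cKO replicate 1. The endothelial marker sum was 149 to 204 TPM in controls and 594, 320 and 193 TPM in cKO replicates 1 to 3. Relative to the endothelial gene Pecam1 (TPM), Dll4 stood at 0.0936 to 0.136 in controls and 0.0902 to 0.124 in cKO libraries, so this ratio overlapped. The ratio of Notch4 to Pecam1 was 0.122 to 0.134 in controls and 0.123, 0.0703 and 0.0782 in cKO replicates 1 to 3. Only cKO replicate 1 lay within the control range. Dll3 was under the filter on low counts.

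No cleavage or nuclear complex gene passed the edgeR test with or without the block, where 9.87% and 0.545% of all genes did. Rbpj, the DNA-binding partner of the Notch intracellular domain, measured 66.8 to 76.5 CPM in controls and 77.3 to 82.1 CPM in cKO libraries, a log2 fold change of 0.13 (SE 0.10, edgeR adjusted p = 0.476). Adam10, the protease of the first ligand-induced cut, had a log2 fold change of −0.16 with an edgeR adjusted p of 0.494. Of the 10 cleavage genes 0 passed in any of the 3 fits, beside 12.6% of all genes in DESeq2. With so few genes, a count of 0 is near these shares. Among the 9 nuclear complex genes, the acetyltransferase gene Crebbp passed in DESeq2 (adjusted p = 0.0190) and had an edgeR adjusted p of 0.102, at 99.4 to 116 CPM in controls and 139 to 145 CPM in cKO libraries.

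**Figure D5:**
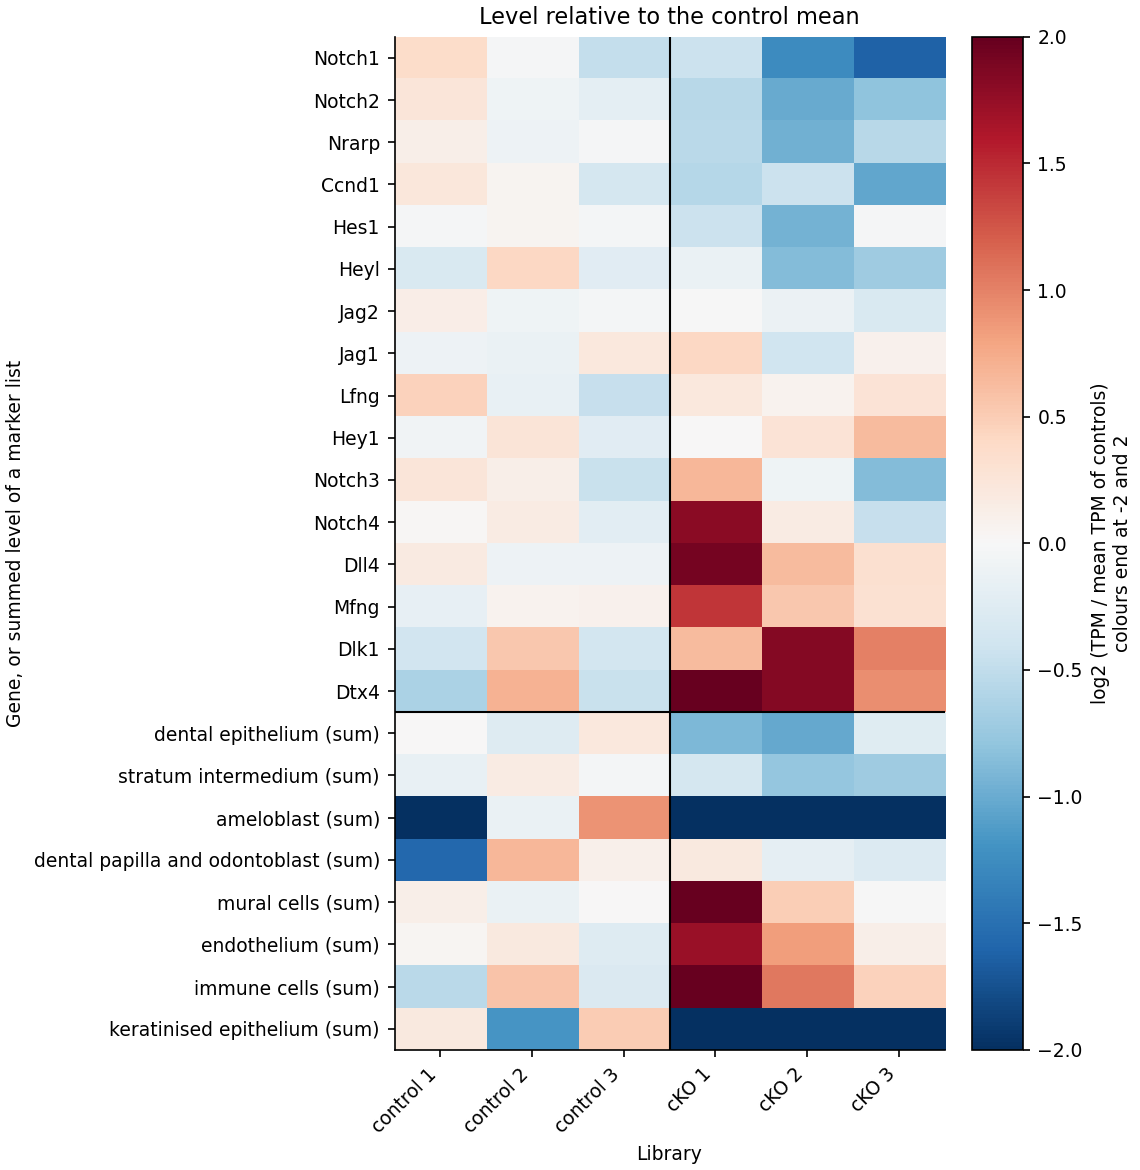
Heat map of log2 (TPM over the mean TPM of controls) for 16 Notch pathway genes and for the summed level of 8 marker lists in each library, with colours ending at −2 and 2. Notch1, Notch2, Nrarp and Ccnd1 are below the control mean in all cKO libraries. So are the dental epithelium, stratum intermedium (mostly Alpl), ameloblast and keratinised epithelium sums. Notch4 and Dll4 are highest in cKO replicate 1 together with the mural, endothelial and immune sums.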

How the data were processed

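RNA was taken from laser-captured IEE (TRIzol and a TruSeq kit, per the labels) in 3 control and 3 cKO samples, called biological replicates in their titles. The deposited table holds, per gene and library, expected counts (10.9% to 11.5% of values not whole), TPM and FPKM, all made by the authors. FPKM and the columns of group means were not used here. The submitters' processing notes name BWA 0.7.12, Picard 2.6.0 and StringTie without their roles, and the counting tool, strand setting and genome build are not given in the sources used here.

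Expected counts were rounded and tested with edgeR 4.0.16 (robust quasi-likelihood test, two-sided, filterByExpr, TMM, Benjamini-Hochberg over 14131 genes) in R 4.3.3. CPM use TMM-scaled library sizes. A gene passed at an adjusted p of at most 0.05, and the study's criterion adds a log2 change of 1 or more in either direction. DESeq2 1.42.0, limma 3.58.1, other scalings and filters, TPM and leaving out single libraries were alternatives, and the fit was tested on simulated data. The biological coefficient of variation was 25.4%. The variance between replicates was 36.3 to 78.2 times that of sampling, and none was a duplicate.

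Same-numbered libraries deviated together from their group means (r = 0.135, 0.324 and 0.499, all over 0.1), although cKO replicate 1 reached 0.144 with control replicate 2. The numbers were therefore read as pairs from the data, since the labels and methods do not state pairing. The p-values with the block rest on this reading of the same data and may be too small. The named genes were the 10 members, Kdf1, pathway genes meeting the criterion in edgeR with or without the block or in DESeq2, the other receptors, ligands, Fringes and targets, and 3 genes most alike each receptor, except that a few items are not reported here. Pathway genes that passed on the adjusted p alone, and the machinery genes named, were chosen after their values were seen. Members and lists were chosen with earlier results of these data known.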

Additional observations from a re-analysis of the deposited data

How the results depend on the processing

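Genes meeting the criterion numbered 61 (20 higher and 41 lower) and moved to 980 in DESeq2, 860 with the replicate block, 103 without a filter, 16 by limma on log2(TPM + 1), 9 with library size alone (2 higher), 7 with DESeq2 size factors (1 higher), and 6 each by limma-voom and with at least 10 counts in every library. Leaving out single libraries gave 1 to 465, the latter without cKO replicate 3, 16 without control replicate 2 and 1 without each of the others. Members meeting it were 0, and 1 (Notch1) in DESeq2 and with the block, and 0 whichever library was left out. Pathway genes were 0, 3 in DESeq2 and with the block, and 0 to 1 with a library left out, the 1 being Dtx4 without cKO replicate 3. Among the members the block changed no call but those of Notch1 and Notch2.

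The log2 fold change of Notch1 was −1.07 in DESeq2, −1.13 with the block and −1.42 to −0.86 with a library left out. For Notch2 it was −0.82, −0.84 and −0.93 to −0.70. Chosen after seeing the data, DESeq2 without cKO replicate 1 and the block without both replicate 1 libraries gave −1.43 and −1.21 for Notch1 and −0.90 and −0.77 for Notch2, all past the limit, with 573 and 885 genes, 1 and 1 members and 3 and 4 pathway genes meeting the criterion. Nrarp and Ccnd1 passed in both, as did Heyl with −0.78 and −0.89.

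Signs turned for Notch3 (0.0029 with library size alone, −0.42 to 0.25 with a library left out), for Jag1 (0.012 in DESeq2 and with its size factors, 0.028 with upper quartile scaling, 0.056 with library size alone, 0.0096 with at least 10 counts, 0.044 with TPM and either pseudocount, −0.13 to 0.20 with a library left out), for Lfng (−0.012 to 0.44 with a library left out) and for Notch4 (−0.11 without cKO replicate 1, −0.11 and −0.13 in the added fits, −0.11 to 1.11 over the libraries). None of these was past the limit. The causes of these moves were not tested. No setting shifted the median of all genes by 0.1. With 3 libraries a group, p-values set the difference between groups against the spread between these libraries. Without the block, the intervals of the 8 members outside Notch1 and Notch2 include 0.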
